A study of Mus musculus with 16 samples.

Results

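Dual-specificity phosphatases remove phosphate from both the threonine and the tyrosine that switch on a MAP kinase, and so end the kinase's signal. The family chosen here holds 10 genes, and spots were assigned to them by matching the RefSeq accession in the array file to the gene symbol or its alias. Of the 10, 9 had a spot on the array, with 12 probes in all: 3 for Dusp8, 2 for Dusp14 and 1 for each of the others. Dusp5 had no matching spot and was not analysed here. The 9 genes belong to a table of 25034 targets that were tested together, of which 16804 carry a gene symbol.

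The study measured RNA of the whole mouse uterus on 16 one-colour arrays, 4 in each of 4 groups. GenD mice had received 50 mg/kg of the soy isoflavone genistein in corn oil on postnatal days 1 to 5 and, as adults, 1 mg/kg of the synthetic glucocorticoid dexamethasone. SalD mice had received the neonatal control and the same adult dexamethasone. GenV mice had received neonatal genistein and 100 µl of the saline vehicle as adults, and SalV mice the neonatal control and the vehicle. The neonatal control is given as 20 µl of corn oil in the design and as saline in the sample labels. All mice in all groups had their adrenal glands and ovaries removed at 6 weeks of age, were injected into the peritoneum at 8 weeks, and gave tissue 4 h later. The surgery removes the main sources of corticosterone and estrogen. The labels name no animals, pools or strain, so the p-values measure the spread between arrays. With 4 arrays a group, this number limits the precision.

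Most members of the family are feedback regulators: MAP kinase activity itself induces several of them, and the protein then acts on the kinase. Dusp1, Dusp2, Dusp4 and Dusp5 are inducible nuclear enzymes, Dusp6 and Dusp7 are cytoplasmic and prefer ERK, and Dusp8, Dusp10 and Dusp16 prefer the stress kinases p38 and JNK. Dusp14 is a small atypical member without the MAP kinase-binding domain. Dusp1, also called MKP-1, is known as a direct target of the glucocorticoid receptor and as one route by which glucocorticoids lower p38 and JNK signalling in inflammation.

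All values are log2 of the background-subtracted Cy3 signal minus the 75th percentile of its array, so that 0 is the 75th percentile and 1 unit is a doubling. A difference passed the test, called "changed" here, where the moderated two-sided test of limma gave a Benjamini-Hochberg adjusted p below 0.05 over all 25034 targets. Each of the 12 probes was well above background on all 16 arrays, except the Dusp2 probe, which was so on 15 because its spot on SalD array 2 was flagged as an outlier and left out. None of the 12 was saturated on any array. The 75th percentile itself lay between 948 and 2719 signal units, and between 1987 and 2719 on the SalD arrays. Of all spots, 68.9% to 81.3% were above background on an array, and arrays correlated at 0.963 to 0.988 within groups and 0.933 to 0.986 between them. Markers of the labelled tissue were present: 7 of 8 smooth muscle, 6 of 7 epithelial and 6 of 7 stromal markers were above background on all 16 arrays. The treatment was visible in the glucocorticoid target Fkbp5, higher by 4.56 (SE 0.38) in GenD against GenV and by 4.44 (SE 0.38) in SalD against SalV. Because the tissue was sampled in bulk, fewer cells of a type and less RNA per cell cannot be told apart in any value below.

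Dexamethasone changed 4 of the 9 measured phosphatases in the control-reared uterus. Dusp1, Dusp7 and Dusp14 were higher and Dusp10 was lower in SalD than in SalV, while Dusp2, Dusp4, Dusp6, Dusp8 and Dusp16 did not pass the test. Over all targets 23.0% passed in this comparison, 8.61% as higher and 14.4% as lower. SalD and SalV arrays did not overlap for the same 4 genes, against 28.5% of all targets. After neonatal genistein, 1 of the 9 passed, Dusp1, against 5.32% of all targets (2.52% higher and 2.80% lower), and GenD and GenV did not overlap for 1 of the 9, also Dusp1, against 12.4% of all targets. The median log2 difference of the 9 was -0.11 after genistein, where that of all targets was -0.02, and 0.11 in controls, where that of all targets was -0.16. Both scaling alternatives moved the median of all targets in controls, to -0.04 with quantile normalization and to 0.07 with median scaling. The share of calls that were higher was 37.4% in the main setting, 47.6% with quantile normalization and 65.2% with median scaling.

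Genistein without dexamethasone gave no call among the 9: in GenV against SalV limma called 0 of 9, 0 also at an unadjusted p below 0.05, against 0.00399% of all targets, which is 1 target, 4930577N17Rik, named here after its value was seen. No member separated GenV from SalV without overlap, against 4.83% of all targets. Under dexamethasone, 1 of the 9 passed between the rearing groups, Dusp14, which was lower in GenD than in SalD. The brightest probe stood for each gene here. Over all targets 22.8% passed there, 16.4% as higher and 6.47% as lower, and GenD and SalD did not overlap for 2 of 9 members, Dusp7 and Dusp14, against 28.7% of all targets. Of the calls over all targets in GenD against SalD, 71.7% were higher in the main setting, 55.9% with quantile normalization and 55.7% with median scaling. The difference between the 2 dexamethasone effects, tested as an interaction, passed for 0 of 9 members and for 0% of all targets. At an unadjusted p below 0.05 limma gave 1 of 9 members, Dusp14, and 3878 of 25034 targets. The comparisons share arrays with each other (SalD and GenD each stand in more than 1), so their values are given side by side and not as independent repeats.

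**Figure D1:**
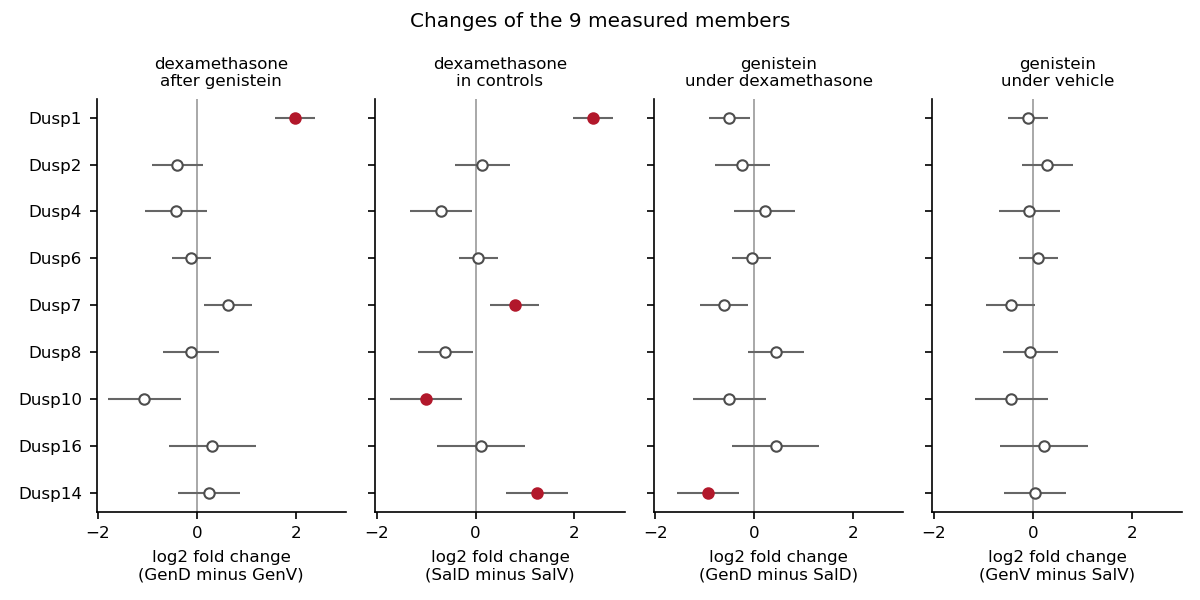
Log2 fold changes of the 9 measured members in 4 comparisons, with 95% confidence intervals from limma as horizontal lines; filled red points passed at an adjusted p below 0.05 and open points did not. Dusp1 was the member that passed in both dexamethasone panels, Dusp7, Dusp10 and Dusp14 passed in the controls, Dusp14 passed in GenD against SalD, and no member passed in GenV against SalV.

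Because Dusp1, Dusp7, Dusp14 and Dusp10 were the members that dexamethasone changed in controls, the 250 bases before their annotated start are shown, on the gene's strand, from RefSeq on the GRCm38.p6 build. A window was matched for 9 of the 10 members, and the window of Dusp4 is not used here. Capitals mark matches to any of 7 short motifs that were searched on both strands.
Dusp1, chr17:26508473-26508722, minus strand: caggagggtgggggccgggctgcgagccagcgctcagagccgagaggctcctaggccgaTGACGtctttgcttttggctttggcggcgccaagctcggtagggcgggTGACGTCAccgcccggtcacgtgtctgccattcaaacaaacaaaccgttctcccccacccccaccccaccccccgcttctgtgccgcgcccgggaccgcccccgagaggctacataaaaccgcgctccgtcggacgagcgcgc
Dusp7, chr9:106368382-106368631, plus strand: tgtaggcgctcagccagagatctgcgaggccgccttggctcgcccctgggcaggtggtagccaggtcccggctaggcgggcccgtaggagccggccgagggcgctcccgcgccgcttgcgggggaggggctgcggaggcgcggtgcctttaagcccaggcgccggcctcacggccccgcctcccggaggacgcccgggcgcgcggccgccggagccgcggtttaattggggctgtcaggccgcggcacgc
Dusp14, chr11:84068358-84068607, minus strand: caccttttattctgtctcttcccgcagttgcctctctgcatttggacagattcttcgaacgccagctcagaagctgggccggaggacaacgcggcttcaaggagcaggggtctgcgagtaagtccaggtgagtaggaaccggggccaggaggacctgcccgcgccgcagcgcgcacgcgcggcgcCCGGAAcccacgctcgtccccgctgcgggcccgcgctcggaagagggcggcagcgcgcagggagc
Dusp10, chr1:184034131-184034380, plus strand: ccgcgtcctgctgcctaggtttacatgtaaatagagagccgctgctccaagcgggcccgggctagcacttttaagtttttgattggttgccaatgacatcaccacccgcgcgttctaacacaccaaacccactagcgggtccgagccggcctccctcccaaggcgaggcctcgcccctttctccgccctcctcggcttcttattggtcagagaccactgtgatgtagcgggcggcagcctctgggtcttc
The motifs were the core ACANNNTGT of the glucocorticoid response element, the short glucocorticoid motif AGAACA, the cyclic AMP response element TGACGTCA, its shorter part TGACG, the AP-1 site TGANTCA, the ETS site CCGGAA and the TATA box TATAAA. Dusp1 held the full TGACGTCA from -143 to -136, counted from the start with -1 as the last base before it, and a separate TGACG from -191 to -187. Each full TGACGTCA also contains TGACG once on each strand. Among all 32851 RefSeq mouse windows of the same length, 1.55% held TGACGTCA and 17.8% held TGACG. The G and C content was 68.4% in the Dusp1 window and 71.6% in the Dusp8 window. Its median over all windows was 52.4%, and the shares were not matched for it. Dusp8, whose window is not printed, held TGACGTCA at -107 to -100 and again at -63 to -56, and TGACG stood once each in the windows of Dusp5 and Dusp16. Dusp14 held CCGGAA at -65 to -60, a motif in 12% of all windows. None of the 7 motifs matched in the windows of Dusp7 and Dusp10. The glucocorticoid core ACANNNTGT, in 5.84% of all windows, matched in 1 member window, that of Dusp6. The motif AGAACA (16.1% of all windows), the AP-1 site (6.75%) and the TATA box (12.4%) matched in none of the 9 member windows. A match is a description of letters and does not show a bound site, and these windows do not reach distal elements.

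Dusp1, the nuclear phosphatase of p38, JNK and ERK, had the largest change of the 9 measured members in both dexamethasone comparisons. It measured 1.47, 2.40, 2.20 and 1.82 on the 4 GenD arrays, 2.60, 2.49, 2.40 and 2.40 on the SalD arrays, -0.01, -0.24, 0.34 and -0.11 on the GenV arrays, and 0.27, -0.09, -0.03 and 0.24 on the SalV arrays. All 8 dexamethasone arrays lay above all 8 vehicle arrays, with more than 1 log2 unit between the lowest of the first and the highest of the second. The group means were 1.97 ± 0.42 in GenD, 2.47 ± 0.09 in SalD, -0.01 ± 0.25 in GenV and 0.09 ± 0.18 in SalV (SD, n = 4 each).

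Dexamethasone raised Dusp1 by 1.98 (SE 0.19) in GenD against GenV, a 3.94-fold difference with a limma adjusted p of 4.01e-05. In SalD against SalV the difference was 2.38 (SE 0.19), 5.20-fold, with a limma adjusted p of 8.22e-06. The probe's unscaled signal ran from 4650 to 9441 on GenD arrays, from 11169 to 16486 on SalD arrays, from 1467 to 1951 on GenV arrays and from 927 to 2392 on SalV arrays. Arrays on the same slide allow a comparison within it: GenD exceeded GenV by 1.85, 2.51 and 2.06 on slides 2, 3 and 4, and SalD exceeded SalV by 2.18, 2.69 and 2.16 on slides 1, 3 and 4. The difference was therefore present on each slide that holds both groups. Both calls were kept under all 34 alternative settings, with log2 differences between 1.83 and 2.18 after genistein and between 2.29 and 2.61 in controls.

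In order of level, Dusp1 stood highest in SalD, then GenD, then SalV and GenV. SalD and GenD did not differ past the threshold: GenD was 0.50 below SalD (log2 difference -0.50, SE 0.19, limma adjusted p 0.0698), and GenD array 2 reached the SalD arrays. Without GenD array 2 this difference was -0.65, with a limma adjusted p of 0.0347. GenV and SalV did not differ beyond their spread either (GenV minus SalV -0.10, 95% interval -0.51 to 0.31, limma adjusted p 0.796). The interaction was -0.40 with a 95% interval of -0.98 to 0.18 (limma adjusted p 0.477), so a smaller response after genistein of up to that size, or none, lay within the interval.

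The 5 genes whose profile over the 16 arrays was nearest to that of Dusp1, by the root mean square difference of log2 values centred on their mean, were Sgk1 (0.307), Adamts15 (0.312), Tmem252 (0.346), Nfil3 (0.351) and Tsc22d3 (0.353). The median over all other targets with a gene symbol was 1.23. This is a description over 4 groups of shared arrays, in which the dexamethasone step dominates. Sgk1 differed by 1.51 (SE 0.21) in GenD against GenV and by 2.38 (SE 0.21) in SalD against SalV. Tsc22d3, which encodes the glucocorticoid-induced leucine zipper protein, differed by 2.40 (SE 0.22) in GenD against GenV and by 2.42 (SE 0.22) in SalD against SalV. The other 3 were likewise higher under dexamethasone, by 1.61 to 2.46 in GenD against GenV and by 1.77 to 2.80 in SalD against SalV.

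**Figure D2:**
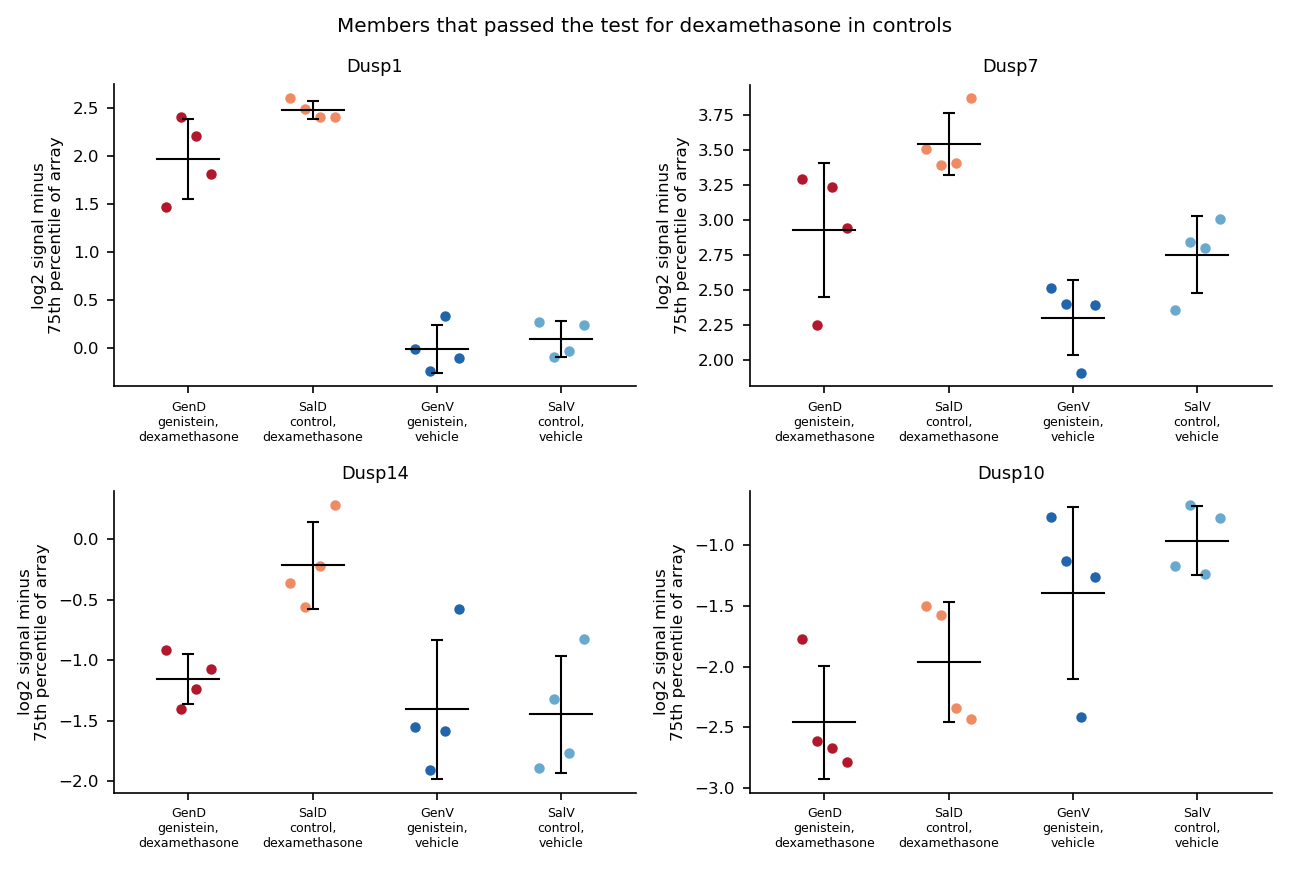
Values of Dusp1, Dusp7, Dusp14 and Dusp10 on every array, as log2 signal minus the array's 75th percentile, with 4 arrays a group; coloured points are arrays, horizontal bars are group means and vertical bars are SD. For Dusp1 the GenD and SalD arrays lie between 1.47 and 2.60, all above the GenV and SalV arrays, for Dusp14 the SalD arrays stand above the GenD and SalV arrays, and for Dusp10 the SalD arrays stand below the SalV arrays.

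Of the other inducible nuclear enzymes, Dusp2, known from activated lymphocytes, ranged from 0.94 to 1.78 in GenD, from 1.36 to 2.07 in SalD (3 arrays), from 1.29 to 2.13 in GenV and from 1.29 to 1.82 in SalV. The 4 ranges overlapped. Its difference was -0.40 (95% interval -0.92 to 0.12) in GenD against GenV and 0.14 (-0.42 to 0.69) in SalD against SalV, with limma adjusted p of 0.429 for the first and 0.736 for the second. Dusp4, the ERK- and JNK-directed MKP-2, ranged from -4.97 to -3.88 in GenD, from -4.88 to -4.08 in SalD, from -4.36 to -3.44 in GenV and from -4.36 to -3.42 in SalV. Its difference was -0.42 (SE 0.29, limma adjusted p 0.502) in GenD against GenV and -0.70 (SE 0.29, limma adjusted p 0.0947) in SalD against SalV. SalV array 4, at -4.36, was the array that brought the Dusp4 ranges of SalD and SalV to overlap; without it the difference was -0.90 with a limma adjusted p of 0.0440.

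Of the 2 cytoplasmic ERK phosphatases, Dusp7 passed in controls and Dusp6 did not, and they were not tested against each other. Dusp6, the ERK-selective MKP-3 that is widely used as a readout of ERK activity, ranged from 3.25 to 3.62 in GenD, from 3.18 to 3.70 in SalD, from 3.04 to 3.99 in GenV and from 3.29 to 3.48 in SalV, and the ranges overlapped throughout. Its difference was -0.11 (95% interval -0.51 to 0.29) in GenD against GenV and 0.06 (-0.34 to 0.46) in SalD against SalV, so a change beyond 0.51 in size lay outside both intervals. The limma adjusted p was 0.849 in GenD against GenV and 0.859 in SalD against SalV.

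Dusp7, the related ERK phosphatase, measured 3.30, 2.25, 3.24 and 2.94 on the GenD arrays, 3.51, 3.40, 3.41 and 3.87 on the SalD arrays, 2.51, 2.40, 1.91 and 2.39 on the GenV arrays, and 2.36, 2.85, 2.80 and 3.01 on the SalV arrays. Every SalD array lay above every array of the other 3 groups, and GenD array 2 was the 1 GenD array that fell into the GenV range. In SalD against SalV it was higher by 0.79 (SE 0.23), 1.73-fold, with a limma adjusted p of 0.0250. The difference was 1.27, 0.66 and 0.40 within slides 1, 3 and 4. The call was lost without SalV array 1 (0.66, limma adjusted p 0.0848), without SalD array 4 (0.68, limma adjusted p 0.0778) and without SalD arrays 2 and 3 together (0.93, limma adjusted p 0.0524).

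In GenD against GenV the Dusp7 difference was 0.63 (SE 0.23) and did not pass (p 0.0159, limma adjusted p 0.145). It was 0.75, -0.14 and 0.54 within slides 2, 3 and 4, and GenD array 2 stands on slide 3. Without that array it was 0.85, with a limma adjusted p of 0.0299. The interaction was -0.16 (95% interval -0.86 to 0.53), so the dexamethasone effects on Dusp7 in the 2 rearing groups were not shown to differ. GenD was 0.61 below SalD without overlap of arrays (log2 difference -0.61, SE 0.23, limma adjusted p 0.0660), and GenV minus SalV was -0.45 (SE 0.23, limma adjusted p 0.375), so neither rearing comparison passed in the main setting. Without GenD array 1, GenD minus SalD was -0.73 with a limma adjusted p of 0.0456. It also passed with slide as a fixed block (-0.95, limma adjusted p 0.0195), with quantile normalization (-0.67, limma adjusted p 0.0426), with normexp background correction (-0.77, limma adjusted p 0.0473) and with a trend in the prior variance (-0.61, limma adjusted p 0.0451).

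Among the stress-kinase phosphatases, Dusp10, which prefers p38 and JNK and is known as MKP-5, was the member that dexamethasone lowered. It measured -1.77, -2.61, -2.67 and -2.79 on the GenD arrays, -1.50, -1.57, -2.34 and -2.43 on the SalD arrays, -0.77, -1.13, -2.41 and -1.26 on the GenV arrays, and -1.17, -0.67, -1.24 and -0.77 on the SalV arrays. SalD and SalV did not overlap, and GenV array 3 was the 1 GenV array within the GenD range.

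The Dusp10 difference in SalD against SalV was -0.9998 (SE 0.34), with a limma adjusted p of 0.0492, just inside the threshold. It was -0.83, -0.84 and -1.57 within slides 1, 3 and 4. Unscaled, the probe's signal was 485 to 961 on the SalD arrays and 403 to 1188 on the SalV arrays, which overlap, and the difference on the scaled values rests on the higher 75th percentile of the SalD arrays as well as on the signal. With quantile normalization it was -0.93 (limma adjusted p 0.0606) and with median scaling -0.77 (limma adjusted p 0.101), so the call was lost under both while the direction held. It was also lost when any 1 of 11 arrays was left out (each of the 4 SalV arrays, SalD arrays 3 and 4, GenV arrays 2 and 4, and GenD arrays 2, 3 and 4), at -1.09 to -0.84 and a limma adjusted p of 0.0546 to 0.136. In GenD against GenV the difference was -1.07 (SE 0.34, p 0.00764, limma adjusted p 0.0948), of similar size but not past the threshold. Without GenV array 3 it was -1.41, with a limma adjusted p of 0.0174. With slide as a fixed block, the Dusp10 difference passed in GenD against GenV (-1.34, limma adjusted p 0.0451) and missed the threshold in SalD against SalV (-1.004, limma adjusted p 0.0534), so which of these comparisons passed depended on that setting. Within slides 2, 3 and 4 it was -1.45, -1.35 and -1.66. The interaction was -0.07, with an interval of -1.11 to 0.97 that leaves room for differences in either direction as large as the effect itself.

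Dusp16, the JNK-directed MKP-7, ranged from -5.81 to -3.93 in GenD, from -5.98 to -4.51 in SalD, from -5.56 to -4.18 in GenV and from -5.85 to -4.92 in SalV. These ranges overlapped and were wide. Its difference was 0.31 (SE 0.41, limma adjusted p 0.784) in GenD against GenV and 0.11 (SE 0.41, limma adjusted p 0.877) in SalD against SalV. Its probe was the dimmest of the family, at 16.4 to 110 signal units, and its 95% intervals, -0.57 to 1.20 in GenD against GenV and -0.78 to 0.99 in SalD against SalV, bound its response less closely than those of Dusp6.

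Dusp8, another phosphatase of p38 and JNK, had 3 probes that did not respond alike, and its response is uncertain. In SalD against SalV and in GenD against SalD, the brightest and second probes shared a sign. The third had the opposite sign in both. The brightest probe, A_52_P336748, which stands for the gene in the counts above, measured 5.37, 5.11, 5.34 and 5.85 in GenD, 4.52, 5.33, 5.11 and 4.95 in SalD, 5.37, 6.08, 4.98 and 5.72 in GenV, and 5.65, 5.34, 6.11 and 5.25 in SalV. The groups overlapped, and the difference was -0.12 (SE 0.26, limma adjusted p 0.887) in GenD against GenV and -0.61 (SE 0.26, limma adjusted p 0.105) in SalD against SalV. In GenD against SalD it was 0.44 (SE 0.26, limma adjusted p 0.229).

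The second Dusp8 probe, A_51_P114314, measured -1.61, -1.26, -1.31 and -1.78 in GenD, -2.35, -2.52, -2.98 and -3.18 in SalD, -1.33, -1.64, -1.33 and -2.18 in GenV, and -1.24, -2.40, -1.61 and -2.24 in SalV. All 4 SalD arrays lay below all GenD arrays. When each of the kept probes was tested by itself, with p adjusted over probes, this probe was lower in SalD than in SalV by 0.89 (log2 difference -0.89, SE 0.28, limma adjusted p 0.0332) and higher in GenD than in SalD by 1.27 (SE 0.28, limma adjusted p 0.00881). The third probe, A_51_P263246, measured -2.14 to -1.49 in GenD, -1.96 to -1.33 in SalD, -2.68 to -1.62 in GenV and -2.23 to -2.13 in SalV. On that probe SalD lay above SalV without overlap, opposite to the second probe, but the difference of 0.45 (SE 0.22) did not pass (limma adjusted p 0.141). With the mean of the 3 probes in place of the brightest, Dusp8 was 0.54 higher in GenD than in SalD with a limma adjusted p of 0.0378.

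**Figure D3:**
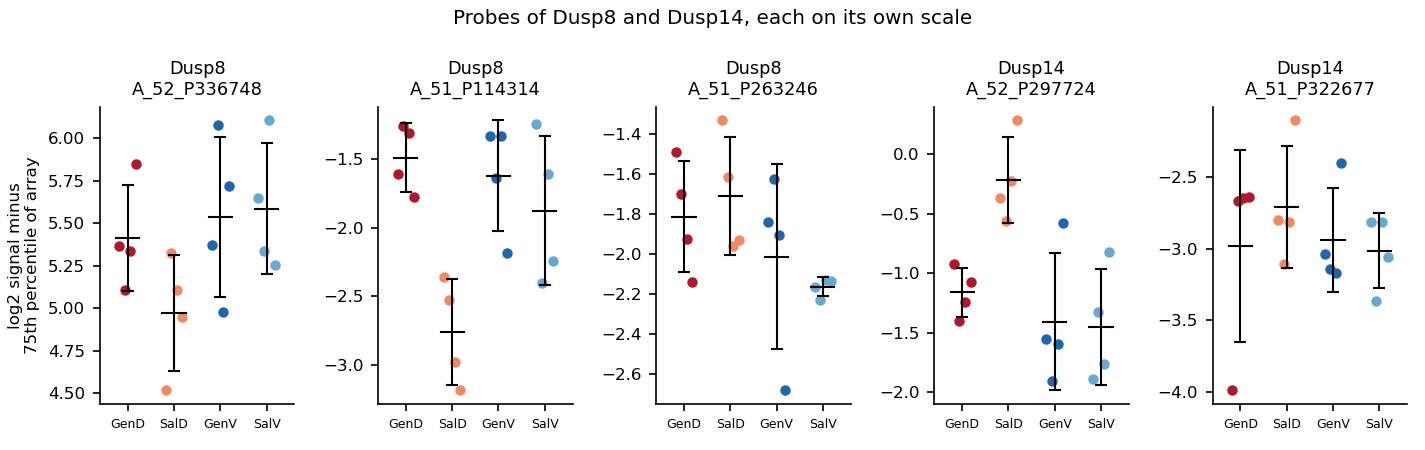
Values of the 3 probes of Dusp8 and the 2 of Dusp14 on every array, as log2 signal minus the array's 75th percentile, each panel on its own scale; coloured points are arrays, horizontal bars are means and vertical bars are SD of 4 arrays. On the second Dusp8 probe the SalD arrays lie below all GenD arrays and overlap SalV, on the third they lie above SalV, and the separation of SalD on the brighter Dusp14 probe is not seen on the dimmer one, where GenD array 1 at -3.99 stands apart.

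Dusp14 is the atypical member, known as a negative regulator of T cell receptor and TAK1 signalling. The second Dusp8 probe, tested by itself, differed between GenD and SalD, as given above. With the brightest probe for each gene, Dusp14 was the 1 member called between these groups. On its brighter probe, A_52_P297724, it measured -0.92, -1.40, -1.24 and -1.08 on the GenD arrays, -0.36, -0.56, -0.22 and 0.28 on the SalD arrays, -1.55, -1.91, -1.59 and -0.58 on the GenV arrays, and -1.89, -1.32, -1.77 and -0.82 on the SalV arrays. The SalD arrays lay above all others, and array 4 was the highest in GenV and in SalV.

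Dusp14 was 1.23 (SE 0.29) higher in SalD than in SalV, 2.35-fold, with a limma adjusted p of 0.00974. Within slides 1, 3 and 4 the difference was 1.75, 0.96 and 0.60, and the call was kept under all 34 alternatives at 0.77 to 1.46. In GenD against GenV the difference was 0.25 (SE 0.29, limma adjusted p 0.752), and within slides 2, 3 and 4 it was 0.48, -0.83 and 0.83, with no common direction. The test of the difference between those effects gave -0.99 with a 95% interval of -1.87 to -0.10 (p 0.0315, limma adjusted p 0.282), which did not pass. Within slides 3 and 4, those that hold all 4 groups, it was -1.78 and 0.23.

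GenD was lower than SalD for Dusp14 by 0.94 (log2 difference -0.94, SE 0.29, limma adjusted p 0.0343), at -1.04 and -0.85 within slides 3 and 4. This call was less stable than that of dexamethasone in controls. It was lost without SalD array 1, 3 or 4 or without GenD array 2, 3 or 4, at -0.99 to -0.78 and a limma adjusted p of 0.0534 to 0.0959. It was also lost with the mean of both probes (-0.61, limma adjusted p 0.0800), with normexp background correction (-0.84, limma adjusted p 0.0707) and with slide as a fixed block (-1.05, limma adjusted p 0.0670). GenV and SalV did not differ beyond their spread (0.04, 95% interval -0.58 to 0.67).

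The dimmer Dusp14 probe, A_51_P322677, did not show this pattern. It measured -3.99, -2.66, -2.65 and -2.64 in GenD, -2.80, -3.11, -2.81 and -2.10 in SalD, -3.04, -3.14, -3.17 and -2.40 in GenV, and -2.81, -3.37, -2.81 and -3.06 in SalV. Its difference was 0.31 (SE 0.31, limma adjusted p 0.495 over probes) in SalD against SalV and -0.28 (SE 0.31, limma adjusted p 0.524) in GenD against SalD. Both had the sign seen on the brighter probe, at less than its size, and the dexamethasone call for Dusp14 therefore rests on 1 probe.

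Markers of other cell types differed between the groups and are given beside these calls. Of 8 adipocyte markers, 7 were above background on all 16 arrays, and 6 were called higher in SalD than in SalV. Their mean log2 level was -1.78 to 1.33 in GenD, -1.09, 2.57, 2.70 and 1.10 on SalD arrays 1 to 4, -0.60 to 0.87 in GenV and -3.99 to -0.36 in SalV. Without SalD arrays 2 and 3, the count of members called in controls was 2, Dusp1 and Dusp14, against 4 with them. That of all 25034 targets was 3625, against 5765 with them. This setting leaves fewer SalD arrays for the test. The Dusp7 difference was then 0.93, against 0.79 with all arrays, and the Dusp10 difference -1.005, against -0.9998. Why these calls were lost was not tested. In GenD against GenV 0 of 8 adipocyte markers were called (0 also at an unadjusted p below 0.05 in limma). There Dusp1 was called, and the differences of Dusp7 (0.63), Dusp10 (-1.07) and Dusp14 (0.25) did not pass. In SalD against SalV these 3 differences were 0.79, -0.9998 and 1.23. The part of adipocytes in them was not tested.

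Of 9 lymphocyte markers, 1 (Ms4a1) was lower in GenD than in GenV, 6 were lower in SalD than in SalV and 6 were higher in GenD than in SalD. Their mean levels were -4.05 to -3.24 in GenD, -4.87 to -4.45 in SalD, -3.46 to -2.96 in GenV and -3.68 to -2.87 in SalV. Of 5 measured neutrophil markers, 4 were lower in GenD than in GenV and 4 in SalD than in SalV, with mean levels of -4.68 to -3.42 in GenD, -4.40 to -3.15 in SalD, -2.53 to -1.87 in GenV and -2.36 to -1.88 in SalV. Of 7 endothelial markers, 1 was lower in GenD than in GenV and 4 in SalD than in SalV. Of 8 smooth muscle markers, 0 were called in GenD against GenV (0 also at an unadjusted p below 0.05 in limma) and 2 were lower in SalD than in SalV. Of 7 stromal markers, 3 (Hoxa10, Hoxa11 and Hand2) were higher in GenD than in GenV. The rest were not called there, with negative differences for Col1a1 (-0.68) and Vim (-0.23) and positive ones for Pdgfra (0.56) and Dcn (0.08). In SalD against SalV 1, Hoxa11, was called higher. Mean levels of the list were 3.42 to 4.10 in GenD, 4.01 to 4.19 in SalD, 3.13 to 3.80 in GenV and 3.70 to 3.87 in SalV. Of 7 ovary and oviduct markers, 4 were above background on all 16 arrays. Of these 7, 4 were lower in SalD than in SalV, and 4 (Amh, Cyp11a1, Cyp19a1 and Foxl2) were higher in GenD than in SalD. Their mean level was -4.12 to -3.60 in GenD, -4.88 to -4.79 in SalD, -3.90 to -3.52 in GenV and -4.02 to -3.52 in SalV. In GenD against GenV 1 of these 7 was higher and 1 lower. The mean levels of the lymphocyte list and of the ovary and oviduct list lay well below 0, the 75th percentile. That percentile was 1987 to 2719 signal units on SalD arrays, 1321 to 1803 on GenD arrays and 948 to 2029 on SalV arrays. The part of this scaling in the differences of these dim markers was not tested. Of 6 macrophage markers 1 was higher in SalD than in SalV and 2 were lower in GenD than in SalD, and of 5 mesothelial markers at most 2 were called in any comparison. The part of these cell types in the values of the phosphatases was not tested.

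The rest of the MAP kinase pathway was described from 6 lists of genes, each set beside the 5.32% of all targets called after genistein and the 23.0% called in controls. Of 16 measured other dual-specificity phosphatases, 0 were called in GenD against GenV (1 at an unadjusted p below 0.05 in limma) and 3 in SalD against SalV. In SalD against SalV, Dusp22, an atypical phosphatase of the JNK pathway, was higher by 0.74 (SE 0.15), Styx, a catalytically dead relative, was higher by 0.54 (SE 0.15), and Dusp23 was lower (-0.57, SE 0.19). Their median difference was -0.06 after genistein and 0.09 in controls.

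Of the 13 MAP kinases themselves, 0 were called in GenD against GenV (3 at an unadjusted p below 0.05 in limma) and 3 in SalD against SalV. Mapk3, which encodes ERK1, was lower in SalD (-0.61, SE 0.13), as was Mapk7, which encodes ERK5 (-0.53, SE 0.15), and Mapk4, an atypical kinase, was higher (0.49, SE 0.15). Of 23 measured activators of these kinases, 1 was called in GenD against GenV and 7 in SalD against SalV, 3 of them higher. Map3k6, which encodes the kinase ASK2 upstream of p38 and JNK, was higher by 3.12 (SE 0.19) in GenD against GenV and by 2.61 (SE 0.19) in SalD against SalV. The next by size in SalD against SalV were Map3k12 (-0.73, SE 0.15), which encodes the JNK activator DLK, Map2k3 (0.64, SE 0.16), a kinase of p38, and Map2k4 (0.63, SE 0.13), a kinase of JNK.

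Among 18 measured genes listed as other inhibitors of ERK signalling, 3 were called in GenD against GenV and 5 in SalD against SalV. Errfi1, whose product MIG6 binds and inhibits the EGF receptor, was higher by 2.89 (SE 0.19) in GenD against GenV and by 3.11 (SE 0.19) in SalD against SalV. Ptpn7, a haematopoietic tyrosine phosphatase that acts on ERK, was lower in GenD than in GenV (-0.98, SE 0.15) and in SalD than in SalV (-1.20, SE 0.15). The neutrophil markers given above were lower in both comparisons, and the lymphocyte markers mainly in SalD against SalV. The part of these cells in the Ptpn7 values was not tested. Pea15a, which holds ERK in the cytoplasm, was lower in GenD than in GenV (-0.48, SE 0.13). In controls Spry4, of the Sprouty inhibitors, was higher by 1.49 (SE 0.43). Lgals1, a sugar-binding lectin whose place in a list of ERK inhibitors is uncertain, was lower (-1.003, SE 0.19). The remaining call of the list, in SalD against SalV, was Pea15a again, also lower.

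Of 19 measured transcripts that ERK activity is known to induce, 3 were called in GenD against GenV and 4 in SalD against SalV, and they moved in both directions. Fosl2, an AP-1 subunit, was higher by 0.46 (SE 0.11) in GenD against GenV and by 0.95 (SE 0.11) in SalD against SalV. Egr2, an early-response zinc finger factor, was lower in GenD than in GenV (-1.39, SE 0.25) and in SalD than in SalV (-0.999, SE 0.25). The ETS factor Etv1 was lower in GenD than in GenV (-0.77, SE 0.18), and Maff (1.42, SE 0.22) and Myc (0.91, SE 0.17) were higher in SalD than in SalV. The list's median difference was -0.05 after genistein and 0.14 in controls.

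Of 23 measured partners and targets of p38 and JNK, the kinases Dusp1 acts on, 4 were called in GenD against GenV, 3 of them lower, and 11 in SalD against SalV, 8 of them lower. The inflammatory cytokine Il1b was lower in GenD than in GenV (-3.36, SE 0.41) and in SalD than in SalV (-3.59, SE 0.41). The monocyte chemokine Ccl2 was lower in the same way, at -2.79 (SE 0.39) in GenD against GenV and -3.47 (SE 0.39) in SalD against SalV. The cytokine Tnf was also lower, at -1.15 (SE 0.29) in GenD against GenV and -1.94 (SE 0.29) in SalD against SalV. Zfp36, which encodes the mRNA decay factor tristetraprolin, was higher by 1.18 (SE 0.20) in GenD against GenV and was also called higher in SalD than in SalV. Mapk8ip2, a JNK scaffold, was lower in SalD than in SalV (-1.09, SE 0.21). The list's median difference was -0.09 after genistein and -0.45 in controls, where all targets had -0.02 after genistein and -0.16 in controls. The neutrophil markers were lower in the same comparisons, and their part in the cytokine values was not tested.

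**Figure D4:**
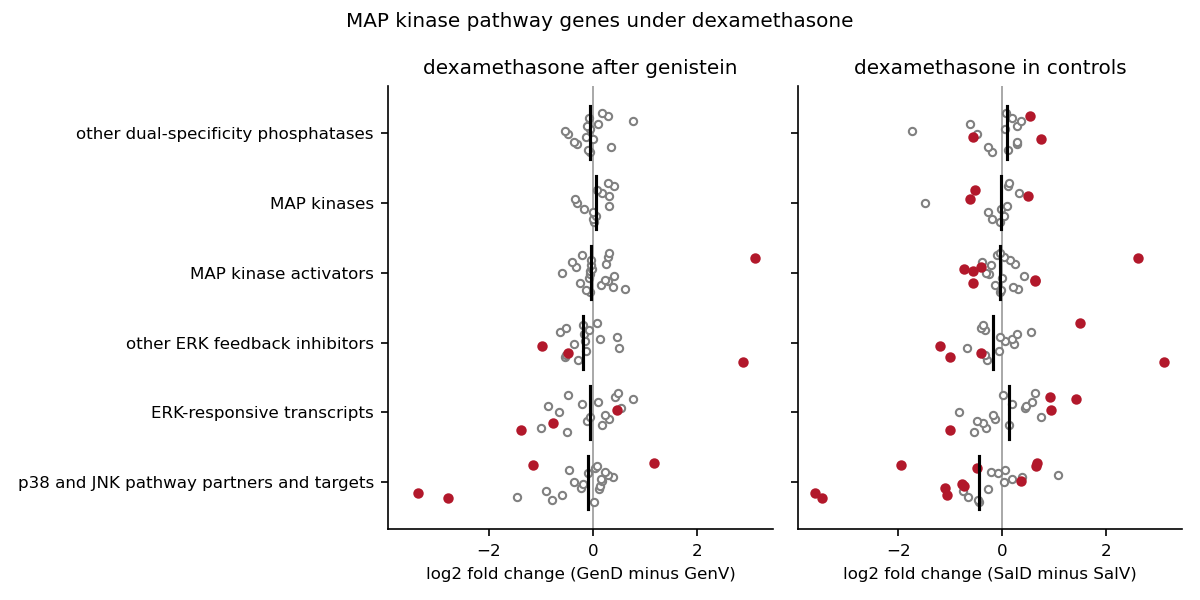
Log2 fold changes of the measured members of 6 MAP kinase pathway lists in GenD minus GenV and SalD minus SalV; each point is a gene, filled red where it passed at an adjusted p below 0.05, and the black bar is the list's median. In the p38 and JNK list 4 of 23 points are filled after genistein and 11 of 23 in controls, and Map3k6 and Errfi1 stand far to the right in both panels.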

How the data were processed

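RNA of the whole uterus was labelled with Cy3 from 400 ng per sample and hybridised to 16 one-colour Agilent arrays, 4 a group. The deposited intensity values are background-subtracted processed signals with spot flags from Feature Extraction 12.0.0.7, per the file headers, while the submitters' processing notes name version 9.5. No gene-level normalization by the authors was applied to these signals, since the deposited value table was identical to them. From these, log2 signals were taken minus each array's 75th percentile over non-control spots, and outlier-flagged spots were left out. A probe was kept where at least 3 of 4 arrays of every group measured it and at least 4 of 16 arrays had it well above background, which left 33365 probes. Where a target had several, its values are those of the brightest, giving 25034 targets, of which 8230 had no symbol in the RefSeq table used.

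Group means of all 16 arrays were fitted with limma 3.58.1 (R 4.3.3) and compared in 5 contrasts. The model was tested on simulated data first. Each other probe was also tested by itself, and 34 alternative settings were run. All members were named with every kept probe, of each pathway list up to 4 called genes per dexamethasone comparison by size, and the 5 nearest profiles of a member called in both. The members and lists were chosen with earlier results of these data known. Figures were drawn with matplotlib 3.10.9. Files held 5 slides, of which slide 5 held SalV array 3 alone. Deviations from the group means correlated above 0.1 in 8 of 24 same-numbered pairs of arrays (median 0.03) and in 16 of 72 other pairs (median -0.04). The correlations ran from -0.37 to 0.38 in the first and from -0.42 to 0.39 in the second. The numbers were not used as pairs in the main setting.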

Additional observations from a re-analysis of the deposited data

Results flagged for a closer look

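The dimmer Dusp14 probe, A_51_P322677, measured -3.99 on GenD array 1, far from the other 3 GenD arrays at -2.66, -2.65 and -2.64. The gap to the nearest array, divided by the range of the group, exceeded Dixon's 95% critical value for 4 samples. It was the 1 case among 47 groups of 4 arrays tested over the 12 probes, and chance marks about 1 group in 20, so 1 such case carries little weight. The brighter Dusp14 probe measured -0.92 on the same array, the highest of the GenD arrays.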

How the results depend on the processing

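Over 34 alternatives no called member changed direction. Dusp1 kept both dexamethasone calls and Dusp14 its call in controls in all 34. Dusp7 lost its call in controls in 3, Dusp10 in 16, and Dusp14 lost its call in GenD against SalD in 10. Small differences that passed in no setting changed sign in some. The count of members called in controls, 4, was 2 without SalD arrays 2 and 3 and 2 to 4 with single arrays left out. An adjusted p below 0.1 added Dusp4 there (-0.70, limma adjusted p 0.0947), where 8145 of all targets passed. Quantile normalization, median scaling, no filter on dim probes and slide as a fixed block each lost Dusp10. After genistein, 1 member became 2 with slide as a fixed block, 2 with the replicate number as a block (the replicate block added Dusp10), 3 with array weights, 2 at an adjusted p below 0.1, 2 without GenV arrays 3 and 4, and 1 to 2 with single arrays left out. Over all targets the count after genistein, 1331, was 1383 with the replicate block and 1477 without GenV arrays 3 and 4. The other counts over all targets stand below. In GenD against SalD, 1 member became 2 with quantile normalization, 2 with a variance trend and 3 at an adjusted p below 0.1. Over all targets 5717 became 5437, 6094 and 8370 in these settings. The member count was 0 without SalD arrays 2 and 3, and 0 to 2 with single arrays left out. An unchanged count of 1 there hid exchanges: Dusp7 was called in place of Dusp14 with normexp and with slide as a fixed block, Dusp8 with the mean of the probes, and Dusp1 without GenD array 2. The causes were not tested. No member was called for the interaction or in GenV against SalV under any of the 34. The alternative without probes missing on an array was added after seeing the data and changed no call, and it left Dusp2 out.

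Counts over all targets moved more: 5765 in controls (3154 without SalV array 1, 3611 without SalD array 4, 3625 without SalD arrays 2 and 3, 3390 with normexp), 1331 after genistein (392 with normexp, 849 with slide as a fixed block, 588 with only the arrays compared, 4406 with array weights, 2110 at an adjusted p below 0.1, and 882, 849 and 728 without GenV array 1, GenD array 2 or GenD array 3) and 5717 in GenD against SalD (3331 with normexp, 11617 with array weights, 2396 without SalD arrays 2 and 3, and 3396, 3587 and 3316 without SalD array 3, SalD array 4 or GenD array 3). The interaction gave 0 to 1 and GenV against SalV 0 to 2. The slide correlation was 0.03. The number of arrays limits small effects on dim probes such as Dusp16.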
